A study of Mus musculus with 4 samples.

Results

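The genes described here produce or remove superoxide: the superoxide dismutases Sod1, Sod2 and Sod3, the catalase gene Cat, the NADPH oxidases Nox4 and Nox1, and Cyba, which encodes their small membrane partner. They were chosen by symbol, for their known roles, with earlier results of these data known. They make up 7 of the 55487 genes counted by RNA sequencing of mouse embryonic fibroblasts (MEFs), primary cells cultured from mouse embryos. Wild-type MEFs of the C57BL/6J strain were grown at passage 2 per the labels, while the paper's text gives the next passage, in DMEM with 10% serum. They received either no PEDF (control) or 100 ng/mL of PEDF, a secreted glycoprotein of the serpin family, for 24 h. Experiment 1 and experiment 2 used different embryos, and each gave 1 control library and 1 PEDF library, so that the control and PEDF cells of an experiment came from the same preparation and each group held 2 preparations. The study asked what mediates the action of PEDF on senescence and on reactive oxygen species in MEFs. The fluorescent assay of reactive oxygen species was not analysed here, and transcript levels do not measure enzyme activity.

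NADPH oxidases pass electrons from NADPH across a membrane to oxygen. Nox1 makes superoxide, Nox4 releases mostly hydrogen peroxide, and both need the Cyba protein in the membrane. Superoxide dismutases turn superoxide into hydrogen peroxide, with the Sod1 enzyme in the cytosol, the Sod2 enzyme in the mitochondrial matrix and the Sod3 enzyme outside the cell. Catalase then splits hydrogen peroxide into water and oxygen, mainly in peroxisomes. MEFs are known to stop dividing early under the oxygen of room air, and oxidative damage is a known part of that arrest.

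The libraries held 14722848 to 18144640 counts, with 22135 to 22647 genes detected in each. Levels were expressed as CPM, the counts of a gene in every 1000000 counts of its library, after scaling by the TMM method of edgeR (factors of 0.983 to 1.01). At these depths 3 counts equalled 0.168 to 0.203 CPM, and all 7 genes passed the filter of 10 counts over the libraries. All 9 fibroblast markers were detected, led by Col1a1 with 17302 to 24006 CPM. The summed CPM of 6 smooth muscle markers, led by Acta2, lay between 3799 and 3920. Markers of other cell types were lower in sum: 341 to 486 CPM for 8 skeletal muscle markers (led by Actc1, with Myf6 at 0 throughout), 105 to 162 CPM for 10 macrophage markers, 64.5 to 80.2 CPM for 7 epithelial markers (led by Krt18), and 29.3 to 31.6 CPM for 7 endothelial markers (led by Erg, with Tie1 at 0 throughout).

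Levels of different genes can be compared only per unit of transcript length. The deposited TPM values (transcript levels, with counts divided by gene length and scaled to a total of 1000000 in each library) were used for this. By mean TPM over the 4 libraries, Cyba was first with 157 (range 142 to 164), above 95.6% of the 19384 genes tested. Sod1 followed with a mean TPM of 96.1 (range 92.3 to 102), and Cat with 66.6 (range 65.3 to 67.1). These 3 genes, the shared oxidase subunit, the cytosolic dismutase and the peroxisomal catalase, all stood above 88.2% or more of the genes tested.

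The next group was lower. Sod3, the secreted dismutase, had a mean TPM of 18.2 (range 16.4 to 19.4), and Sod2, the mitochondrial dismutase, 11.4 (range 11.3 to 11.7). The catalytic oxidase subunits were the lowest, with a mean TPM of 4.74 for Nox4 (range 3.85 to 5.27) and 3.56 for Nox1 (range 2.40 to 4.59). Nox4 and Nox1 were the only neighbours in this order whose ranges over the libraries overlapped. In TPM, Cyba exceeded Nox4 by a ratio of 27.0 to 42.7 in single libraries, and with the principal transcript lengths described next by 16.7 to 26.4.

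The order depended on the length assigned to each gene. For all 7 genes the length implied by the deposited TPM equalled the summed length of all annotated exons in GENCODE M21, which annotates the mouse build GRCm38. Sod1 is on chromosome 16 (chr16:90220754-90226329, plus strand), and its exons sum to 3970 bp because a second transcript retains an intron, whereas its principal transcript has 5 exons and 641 bp. With principal transcript lengths, a choice made after the data were seen, Sod1 had a mean level of 437 on the same scale of 1000000 and moved above Cyba with 161. With these lengths Cat had 48.9, Sod2 14.3, Sod3 13.4, Nox4 7.85 and Nox1 3.37, so that Sod2 stood above Sod3. Sod1 made up 75.9% to 76.8% of the summed TPM of the 3 dismutases as deposited, and 93.9% to 94.2% with principal lengths. Its first place among the dismutases held on both scales, and its place against Cyba did not.

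**Figure D1:**
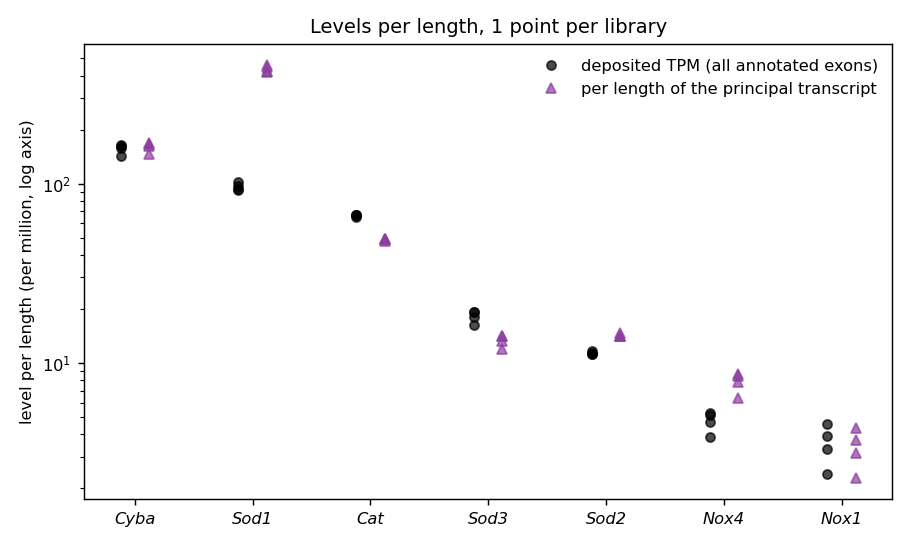
Levels of the 7 genes per unit of length on a log axis, as deposited TPM and with principal transcript lengths, with points for single libraries. Sod1 is the gene that shifts most between both scales, from a mean of 96.1 to 437, and Nox1 is the lowest on both.

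The other genes lie at these places in GRCm38: Sod2 at chr17:13006846-13040063 (plus strand), Sod3 at chr5:52363791-52371418 (plus strand), Cat at chr2:103453849-103485160 (minus strand), Nox4 at chr7:87246096-87398710 (plus strand), Nox1 at chrX:134086421-134221956 (minus strand) and Cyba at chr8:122424776-122432930 (minus strand). Nox1 shares 399 bp of exons with Cstf2 on the opposite strand. Cstf2, a gene of messenger RNA processing, had 53.1 to 56.7 CPM, against 2.90 to 5.28 CPM for Nox1. The strand setting of the counting is not given in the sources used here, and without it reads from the shared bases cannot be assigned to either gene, so the Nox1 counts are uncertain. Sod1 and Cyba also lie across from Scaf4 and the readthrough gene Gm20388, with 0 shared exonic bases in both cases, and Nox1 also spans Xkrx and Arl13a with 0 shared exonic bases.

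The effect of PEDF was tested on the counts of all 4 libraries with the quasi-likelihood test of edgeR and Benjamini-Hochberg adjustment over the 19384 genes tested. Of the 7 genes, 0 had an adjusted p under 0.05, and 0 had an unadjusted p under 0.05. Over all genes, 0.00516% had an adjusted and 6.88% an unadjusted p under that limit. Because each experiment paired its libraries by preparation, a second fit took the experiment as a block, which removes the difference between the preparations. With 4 libraries this fit has little measure of a gene's own spread, so its errors were drawn from all genes pooled. They do not measure how far the experiments disagreed for a single gene. With the block, 0 of the 7 genes were called against 3.75% of all genes, and 1, Cyba, had an unadjusted p under 0.05, against 14.6% of all genes. DESeq2 without the block called 0 of the 5 that it gave an adjusted p (Nox4 and Nox1 received none), and with the block it gave none of the 7 an adjusted p, so that it could call none there. In DESeq2, 0 of the 7 had an unadjusted p under 0.05 without or with the block, against 1.46% and 1.66% of all genes. The intervals below bound the differences that these libraries left possible, and a p above the limit does not show that levels were equal.

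**Figure D2:**
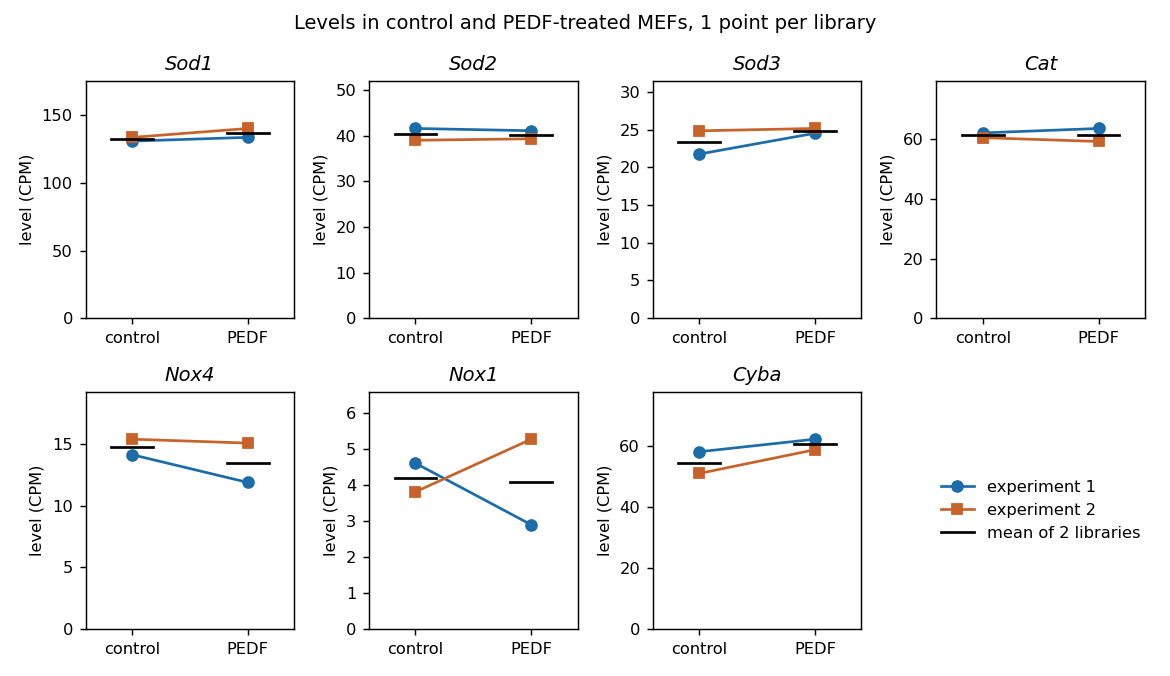
CPM of each of the 7 genes in the 4 libraries, with lines joining the control and the PEDF library of an experiment. Cyba and Sod1 are the genes whose PEDF libraries both lie above both control libraries in CPM, Sod1 by less than 0.1 CPM and not in TPM, and the lines of Nox1 run in opposite directions.

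Among the dismutases, Sod1 had 131 CPM in control 1, 134 in control 2, 134 in PEDF 1 and 140 in PEDF 2. PEDF 2 was the highest library, and PEDF 1 lay level with control 2, at 2078 against 2384 counts in libraries of different depth. Mean CPM was 132 ± 1.93 in control and 137 ± 4.64 with PEDF (SD, n = 2). The log2 fold change was 0.050 (SE 0.071, 95% interval -0.10 to 0.20), with an adjusted p of 0.913 by edgeR's quasi-likelihood test. Sod1 had the most counts of the 7 genes and spread little, with an SD of 0.042 over the 4 log2 CPM values.

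Sod2 had 41.6 and 39.0 CPM in the control libraries and 41.1 and 39.3 CPM in the PEDF libraries. The groups overlapped, and both libraries of experiment 1 stood above both of experiment 2. On the log2 scale PEDF differed from control by -0.0024 (SE 0.088, 95% interval -0.19 to 0.18, edgeR adjusted p = 0.997). In this fit, without the block, any change of this mitochondrial enzyme's transcript beyond 1.14-fold in either direction lay outside the interval. With the block and the trend of fold change with gene length removed, the interval reached 1.17-fold upward.

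Sod3 had 21.8 CPM in control 1, 24.8 in control 2, 24.5 in PEDF 1 and 25.1 in PEDF 2. Control 1 was the low library, and the other three were close together. On the log2 scale the difference was 0.090 (SE 0.11, 95% interval -0.15 to 0.33, edgeR adjusted p = 0.897). Without control 1 it came to -0.00066 and without control 2 to 0.19, so that the size of the difference depended on which control library was kept.

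Cat, which acts after the dismutases, had 62.2 and 60.6 CPM in control and 63.7 and 59.3 CPM with PEDF. The PEDF libraries lay on either side of both control libraries. This gave a log2 fold change of 0.0022 (SE 0.081, 95% interval -0.17 to 0.17, edgeR adjusted p = 0.997), and this interval left out any change beyond 1.13-fold. With the block and the gene length trend removed, the interval reached 1.14-fold downward. Sod1, Sod2 and Cat were the steadiest of the 7 genes, with an SD of log2 CPM of at most 0.046 over the libraries.

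Of the oxidase subunits, Cyba had 58.1 CPM in control 1, 51.0 in control 2, 62.3 in PEDF 1 and 58.8 in PEDF 2. Both PEDF libraries were above both control libraries, PEDF 2 by less than 1 CPM above control 1. Mean CPM was 54.6 ± 5.04 in control and 60.6 ± 2.44 with PEDF (SD, n = 2). The log2 fold change was 0.15 (SE 0.087, 95% interval -0.034 to 0.34, edgeR adjusted p = 0.758). With the block it was 0.15 (SE 0.069, 95% interval 0.019 to 0.29), with an unadjusted p of 0.0255 and an adjusted p of 0.239. When the trend of fold change with gene length was also removed, it was 0.060 (SE 0.068, edgeR adjusted p = 0.826). In that fit 0 of the 7 genes were called, against 2.16% of all genes. Leaving out each library in turn gave log2 fold changes between 0.057, without control 2, and 0.25, without control 1.

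In CPM, groups did not overlap for 2 of the 7 genes, Sod1 and Cyba, both higher with PEDF. For Sod1 this rested on less than 0.1 CPM between PEDF 1 and control 2, and in the deposited TPM PEDF 1 (92.3) lay below both control libraries (92.9 and 97.4), so that the groups overlapped. Cyba had 158 and 142 TPM in control and 164 and 163 TPM with PEDF, without overlap. Over all genes tested, 37.3% had groups that did not overlap, 18.9% with PEDF higher and 18.4% with PEDF lower.

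Cyba is also expressed by macrophages, where it is the partner of Cybb, the phagocyte oxidase. All 10 macrophage markers were detected, and their summed CPM was 162 in control 1, 105 in control 2, 154 in PEDF 1 and 130 in PEDF 2. Their sum was lowest in control 2, as was Cyba. Of the 10, 5 had a positive log2 fold change, and the median was -0.012 without the block and 0.0048 with it. Lyz2, which encodes a lysozyme and led the list, had 60.5, 26.3, 62.6 and 46.1 CPM in the same order. It was the only one of the 10 called with the block (log2 fold change 0.39, SE 0.074, edgeR adjusted p = 2.0e-05), against 1.67% of all genes called higher. Its rise lay mostly in experiment 2, from 26.3 to 46.1 CPM, against 60.5 to 62.6 CPM in experiment 1. The SE with the block does not measure this disagreement. Without the block Lyz2 was not called (log2 fold change 0.34, SE 0.60, edgeR adjusted p = 0.940). Tyrobp, a signaling adaptor of myeloid cells, had 5.01, 2.92, 7.27 and 4.27 CPM, and Adgre1, a surface marker of macrophages, had 17.3, 10.9, 14.2 and 12.97 CPM, both lowest in control 2, with log2 fold changes of 0.54 and -0.025 with the block that were not called. Csf1r, the receptor that macrophages need for survival, had 33.7, 30.3, 29.3 and 28.6 CPM and was not lowest there. The part of macrophage RNA in the Cyba values was not tested, and in these bulk samples fewer cells of a type and less RNA per cell cannot be told apart.

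Nox4, the oxidase that is active without cytosolic partners, had 14.2 CPM in control 1, 15.4 in control 2, 11.9 in PEDF 1 and 15.1 in PEDF 2. PEDF 1 was the low library, and PEDF 2 lay between the control libraries. Its log2 fold change was -0.13 (SE 0.15, 95% interval -0.44 to 0.18, edgeR adjusted p = 0.889). Without PEDF 1 it was 0.027, and without PEDF 2 it was -0.31. The interval reached from a level 1.36-fold lower to one 1.14-fold higher.

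Nox1 had 68 counts in each control library, 45 in PEDF 1 and 94 in PEDF 2. These gave 4.61 and 3.81 CPM in control and 2.90 and 5.28 CPM with PEDF, so that the PEDF libraries were the lowest and the highest of the 4. The log2 fold change was -0.025 (SE 0.28, 95% interval -0.62 to 0.57, edgeR adjusted p = 0.991), the widest interval among the 7 genes and the one behind which the fewest counts stood, 275 in all.

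**Figure D3:**
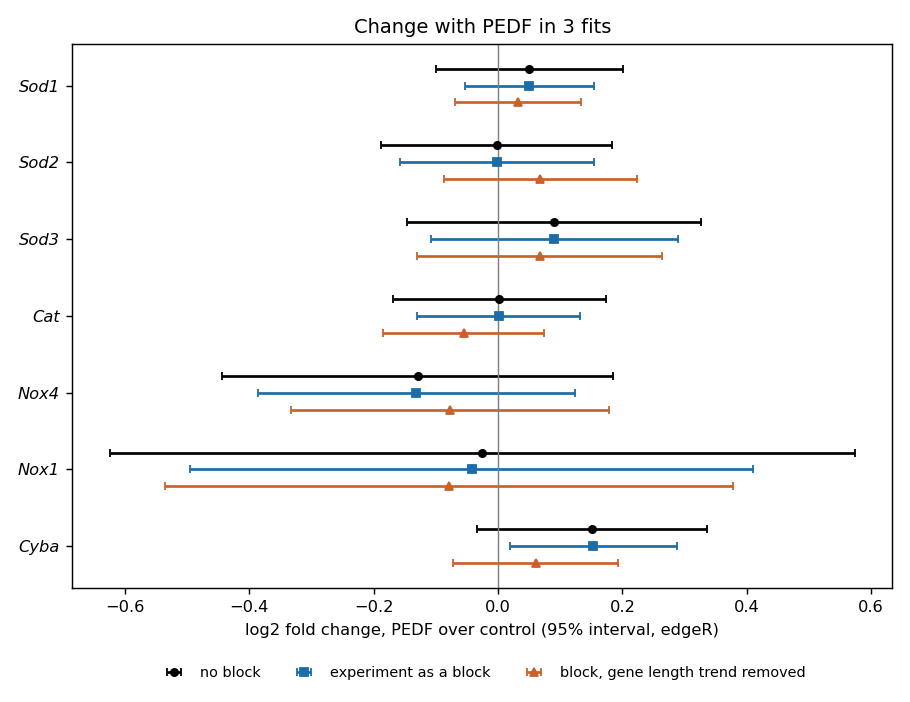
Log2 fold change of PEDF over control for the 7 genes in edgeR without the block, with the block, and with the block and the gene length trend removed, with 95% intervals. The intervals of all genes include 0 without the block, and that of Cyba leaves out 0 in the fit with the block alone.

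Within each experiment there was 1 library a group, so values are given with exact binomial intervals on the counts, which cover counting error only, and with no test. For Cyba the log2 ratio of PEDF to control was 0.099 (95% interval -0.035 to 0.23) in experiment 1 and 0.21 (0.076 to 0.34) in experiment 2. For Sod1 it was 0.030 (-0.060 to 0.12) and 0.070 (-0.012 to 0.15). In CPM both genes had a positive ratio in both experiments, though that of Sod1 in experiment 1 was -0.0088 when taken from the deposited TPM, and the interval left out 0 only for Cyba in experiment 2.

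Sod3 had log2 ratios of 0.17 (-0.046 to 0.39) in experiment 1 and 0.018 (-0.17 to 0.21) in experiment 2. Nox4 had -0.25 (-0.54 to 0.042) and -0.030 (-0.28 to 0.22). For both genes the ratio of experiment 1 was the larger in size, and all these intervals included 0. Sod2, at -0.017 and 0.012, and Cat, at 0.034 and -0.031, differed in sign between the experiments at values near 0. Nox1 differed in sign at larger values, from -0.67 (-1.25 to -0.11) in experiment 1 to 0.47 (0.0033 to 0.94) in experiment 2, and both intervals left out 0. For single genes counted 45 to 94 times, spread between cultures adds to this counting error and was not measured within an experiment.

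**Figure D4:**
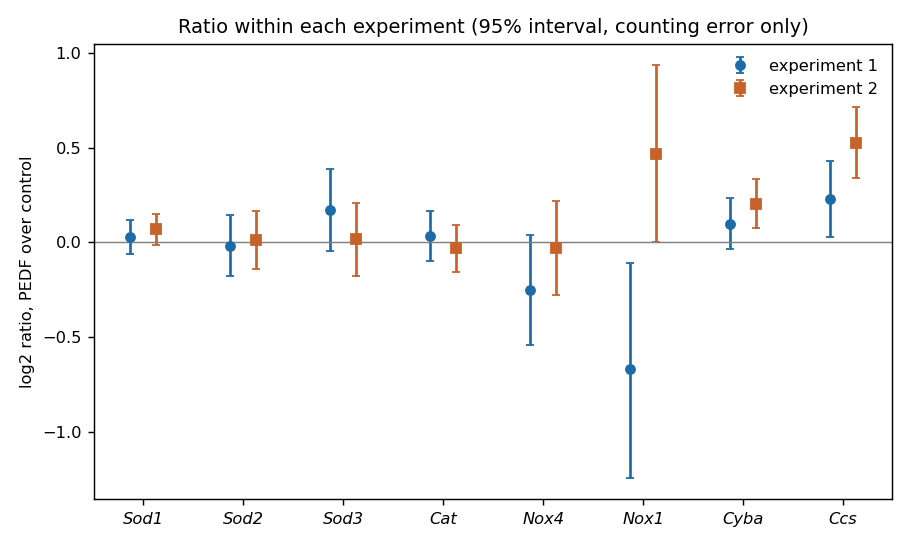
Log2 ratio of the PEDF library to the control library of the same experiment for each of the 7 genes, with 95% intervals for counting error only. Ccs, a copper chaperone of the Sod1 enzyme described below, is drawn beside them, at 0.23 in experiment 1 and 0.53 in experiment 2. Nox1 lies at -0.67 in experiment 1 and at 0.47 in experiment 2. Cyba, Sod3 and Sod1 lie above 0 in both, Sod1 in experiment 1 in CPM but not in TPM (-0.0088).

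The difference between the preparations was measured in the same way, as experiment 2 against experiment 1. By edgeR's quasi-likelihood test 0 of the 7 genes were called, against 0.0567% of all genes tested, and 0 had an unadjusted p under 0.05, against 7.67%. Log2 fold changes ran from -0.13 for Cyba (SE 0.090, adjusted p = 0.770) to 0.28 for Nox1 (SE 0.26, adjusted p = 0.845). Nox4 had 0.23 (SE 0.14, edgeR adjusted p = 0.746) and Sod3 0.11 (SE 0.11, edgeR adjusted p = 0.856). The difference between the experiments was larger in size than that between PEDF and control for Sod2, Sod3, Cat, Nox4 and Nox1, about equal for Sod1 (0.050 in both) and smaller for Cyba, which was not tested. With the treatment as a term, 0 of the 7 genes were called, against 4.49% of all genes.

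Nox1 varied most among the 7 genes, with an SD of log2 CPM of 0.36 over the 4 libraries, followed by Nox4 with 0.17 and Cyba with 0.12. Nox1 and Nox4 also had the fewest counts of the 7 genes, 275 and 938 in all. Counting error was not separated from this spread. Among 10716 other genes whose log2 CPM averaged more than 3, the pattern of Nox1 over the 4 libraries was matched most closely by Gm26903 (Euclidean distance 0.14 between centred log2 CPM values), Dimt1 (0.15) and Gm12191 (0.21). Dimt1, which encodes a methyltransferase of ribosomal RNA, had 16.3 and 14.9 CPM in control and 11.5 and 18.3 CPM with PEDF. With 4 libraries and this many candidates, close matches are found for many patterns.

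The other genes of the pathway were described by lists. Of 17 genes of the NADPH oxidase family, its partners and its activators, 13 had enough counts to be tested. Of these, 0 were called in either direction without or with the block, against 0.00516% and 3.75% of all genes. The median log2 fold change was -0.025, against 0.0012 for all genes tested. Noxa1, the activator of Nox1 in other tissues, was at 0 in all libraries, as were Nox3 and Duoxa2. Rac1, the GTPase that Nox1 needs, had 323 and 317 CPM in control and 338 and 339 CPM with PEDF, a difference of 0.080 on the log2 scale (edgeR adjusted p = 0.825). Sh3pxd2a, an adaptor that organizes oxidases at invadopodia, had a difference of -0.12 on that scale (edgeR adjusted p = 0.758). Cybb, the phagocyte oxidase itself, had 4.47 and 2.80 CPM in control and 5.02 and 4.04 CPM with PEDF, a log2 fold change of 0.33 (SE 0.27, edgeR adjusted p = 0.822). Cybc1, a chaperone of the Cybb and Cyba complex named here after its values were seen, had 41.9 to 45.5 CPM, with a log2 fold change of -0.026.

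All 9 genes of copper supply were tested, and 0 were called without the block. The median log2 fold change of the list was -0.034 without the block, and 3 of the 9 were positive. With the block 1 was called, against 1.67% of all genes called higher: Ccs, the chaperone that delivers copper to the Sod1 enzyme, rose. Ccs had 25.3 CPM in control 1, 22.3 in control 2, 29.7 in PEDF 1 and 32.2 in PEDF 2, and both PEDF libraries were above both control libraries. The log2 fold change was 0.38 (SE 0.11, edgeR adjusted p = 0.626) without the block and 0.38 (SE 0.096, edgeR adjusted p = 0.0039) with it. Within the experiments, the log2 ratio was 0.23 (0.031 to 0.43) and 0.53 (0.34 to 0.72). With the length trend removed as well, the log2 fold change was 0.30 and the adjusted p 0.060 by edgeR, so that the call was lost. Its client Sod1 had a log2 fold change of 0.050 in the same libraries. Atox1, which carries copper to the secretory pathway, had 0.16 (edgeR adjusted p = 0.769), and Cox17, which carries it to the mitochondrial oxidase, had -0.75 at 2.25 to 4.48 CPM (edgeR adjusted p = 0.696).

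Of 14 other oxidases that release superoxide or hydrogen peroxide, 13 were tested and 0 were called without the block. With the block 3 fell, against 2.07% of all genes called lower, all of them lysyl oxidases, which cross-link collagen and elastin and release hydrogen peroxide as a by-product. Loxl2 had 537 and 609 CPM in control and 443 and 483 CPM with PEDF, a log2 fold change of -0.31 (SE 0.044, edgeR adjusted p = 1.5e-09 with the block). Loxl4 had 64.7 and 67.2 CPM in control and 47.8 and 53.4 CPM with PEDF, a log2 fold change of -0.38 (SE 0.068, edgeR adjusted p = 5.0e-06 with the block). Loxl3 had -0.16 (SE 0.049, edgeR adjusted p = 0.043 with the block). All 3 were also called when the length trend was removed, against 2.16% of all genes. Lox and Loxl1, at higher TPM, had log2 fold changes of -0.096 and -0.015 and were not called in these fits. The median of the list was -0.096 without the block and -0.050 with the block and the length trend removed. Among the 9 fibroblast markers, 3 were called lower and 2 higher with the block, against 2.07% and 1.67% of all genes, and Col1a1, a chain of the collagen that lysyl oxidases act on, fell by 0.24 on the log2 scale (SE 0.034, edgeR adjusted p = 6.4e-10 with the block and 0.696 without it). The part of such a shift in the lysyl oxidase values was not tested.

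All 18 genes of hydrogen peroxide removal were tested, 16 with a positive log2 fold change without the block, against 50.2% of all genes tested, and the median was 0.13. The list was chosen with earlier results of these data known, so this is no independent comparison. Without the block 0 were called, and with it 4 rose, against 1.67% of all genes called higher: Gpx4, the glutathione peroxidase of lipid peroxides, by a log2 fold change of 0.26 (SE 0.049, edgeR adjusted p = 3.3e-05), Txn2, the mitochondrial thioredoxin, by 0.21 (edgeR adjusted p = 0.020), and the cytosolic peroxiredoxins Prdx1 and Prdx2 by 0.17 and 0.18 (edgeR adjusted p = 0.011 and 0.010). With the length trend removed, Gpx4 and Txn2 were still called, against 2.16% of all genes, and Prdx1 and Prdx2 were not (edgeR adjusted p = 0.130 and 0.120), while the median of the list was 0.064. Gpx1 and Txn1, with the highest TPM of the list, had log2 fold changes of 0.12 and 0.13, and Pex13, part of the import machinery of peroxisomes, had 0.28 (edgeR adjusted p = 0.070 with the block). Cat, which works beside these enzymes, had 0.0022.

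Of the 16 known regulators of the 7 genes, all were tested and 0 were called without or with the block, with a median log2 fold change of 0.020. Hif1a, the oxygen-regulated transcription factor, had a log2 fold change of -0.044, Nfkb1, a subunit of the NF-kB factor that acts on Sod2, had -0.088, and Tgfb3, a ligand of the pathway that acts on Nox4, had -0.099. Over the 5 lists the test without the block called 0 of 69 genes and gave 10 with an unadjusted p under 0.05, against 0.00516% and 6.88% of all genes tested. With the block it called 8 of 69, against 1.67% of all genes called higher and 2.07% called lower with PEDF. DESeq2 called 0 of the 51 genes of these lists that it gave an adjusted p without the block, and 2 of 15, Gpx4 and Loxl2, with it, against 0.0594% and 9.01% of all genes that it gave one.

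**Figure D5:**
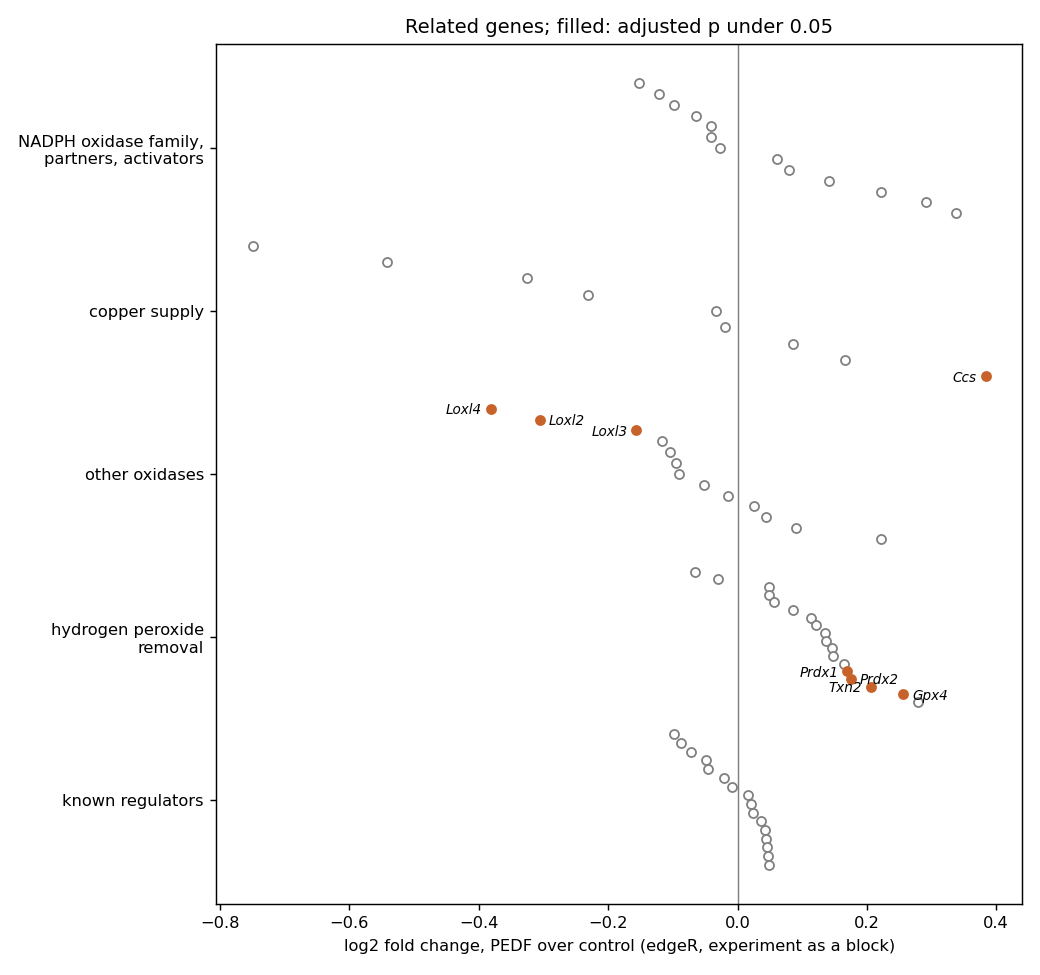
Log2 fold change of PEDF over control in edgeR with the experiment as a block, for the 69 tested genes of 5 related lists, filled where the adjusted p was under 0.05. Points are spread vertically within a list for visibility only. The filled points are Ccs at 0.38, Loxl2, Loxl3 and Loxl4 below 0, and Gpx4, Prdx1, Prdx2 and Txn2 above 0.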

How the data were processed

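Polyadenylated RNA was made into directional libraries and sequenced from both ends. Per the submitters' processing notes, reads were handled with FastQC 0.11.7, Trimmomatic 0.38, HISAT2 2.1.0 on mm10 (GRCm38), SAMtools 1.9 and featureCounts 1.6.3. The authors deposited raw counts of uniquely mapped reads per gene and, in a separate table, TPM values. Which annotation and strand setting were used for counting is not given in the sources used here. Lengths and positions were taken from GENCODE M21.

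The counts were tested with edgeR 4.0.16 under R 4.3.3 (TMM factors, robust quasi-likelihood test, Benjamini-Hochberg adjustment) over genes with at least 10 counts in total, without a covariate, as the study's methods name none. The labels give each experiment its own embryos, so the numbers pair the libraries. Across 10722 genes whose log2 CPM averaged more than 3, the experiments' difference in control correlated with that in PEDF (r = 0.423, where genes are no independent replicates). A fit with the experiment as a block was therefore added, with and without a length trend taken as an offset from natural splines with 5 degrees of freedom. Other alternatives were DESeq2 1.42.0 without and with the block, RLE factors, no filter, filterByExpr, limma 3.58.1 on log2(TPM + 1) and log2(TPM + 0.1), and each library left out in turn.

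The members and lists were chosen with earlier results of these data known. Besides the 7 members, the genes named were, in each list, those with an adjusted p under 0.05 without or with the block, the highest 2 by TPM and the 2 with the largest change among genes with at least 100 counts, the 3 genes most like the most variable member, and the highest marker of each cell type. A gene that this rule names is not reported here. Cybc1, Csf1r, Tyrobp, Adgre1 and Cstf2, and the genes at 0, were named after their values were seen. The edgeR, DESeq2 and limma fits were also run on simulated data as a check of the code only, and no result of that check is given here.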

Additional observations from a re-analysis of the deposited data

Results flagged for a closer look

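Nox1 was the only one of the 7 genes for which both experiments gave an interval without 0 and in opposite directions. The log2 ratio of PEDF to control was -0.67 in experiment 1 (45 against 68 counts) and 0.47 in experiment 2 (94 against 68 counts). Each experiment held 1 library a group, so the difference between the experiments was not tested, and the intervals cover counting error only. The log2 ratio was -0.71 and 0.46 when taken from the deposited TPM. Cstf2, which shares 399 bp of exons with Nox1, had 56.2 and 53.1 CPM in the control and the PEDF library of experiment 1, and 56.4 and 56.7 CPM in experiment 2. The part of these reads in the Nox1 counts was not tested.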

How the results depend on the processing

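In comparing PEDF with control, 0 of the 7 genes were called under 12 alternatives, while DESeq2 with the block gave none of them an adjusted p and so could not call any. With the experiment as a replicate block, which pairs the libraries by preparation, edgeR called 726 of all genes and 8 related genes, in place of 1 and 0. With the block and the length trend removed it called 419 and 5, and DESeq2 called 118 and 2 with the block. Over all genes, DESeq2 without the block called 5 and no filter 106 (2 related genes). edgeR with filterByExpr called 0, as did limma on TPM with either pseudocount (0 and 0), with 1187, 964 and 922 genes at an unadjusted p under 0.05. Leaving out a library, which leaves 1 group with a single library that is assumed to vary like the other group, gave 2 to 205 genes (205 without control 1, 24 without PEDF 2, and 2 without control 2 or PEDF 1) and 0 to 2 related genes (Loxl2 and Loxl4 without control 1). The cause was not tested.

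For experiment 2 against experiment 1, 11 of all genes were called, 870 with the treatment as a term, 139 without a filter, and 21 to 480 with a library left out (129 without control 1, 61 without control 2, 21 without PEDF 1, 480 without PEDF 2), a set of settings chosen after seeing the data.

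Small log2 fold changes turned sign: Sod2 to 0.068 and Cat to -0.055 with the block and the length trend removed, and Cat to -0.00013 with filterByExpr and to -0.022 and -0.022 with limma at pseudocounts of 1 and 0.1. The ratios within experiment 1 turned from 0.030 to -0.0088 for Sod1 and from 0.034 to -0.0049 for Cat in the deposited TPM. Without a library, Sod2 ran from -0.050 to 0.043, Sod3 from -0.00066 to 0.19, Cat from -0.050 to 0.054, Nox4 from -0.31 to 0.027 and Nox1 from -0.53 to 0.33, and Nox1 between the experiments from -0.020 to 0.65. Principal transcript lengths moved mean levels to 437 for Sod1, 14.3 for Sod2, 13.4 for Sod3, 48.9 for Cat and 7.85 for Nox4.

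With 2 preparations a group and 275 counts for Nox1 in all, the intervals left possible changes of 1.49-fold upward or 1.54-fold downward for Nox1, against 1.15-fold upward or 1.07-fold downward for Sod1.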
